A study of Mus musculus with 6 samples.

Results

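The cytosolic ribosomal protein genes of the mouse pancreas were taken as the genes whose symbol follows the Rpl, Rps, Rplp or Rpsa naming pattern, with names marked as pseudogenes left out. The pattern took 84 of the 36333 genes of the count table, 53 of the large subunit and 31 of the small subunit. It leaves out ribosomal proteins with other names (such as Rps3a1, Fau and Rack1), which are described separately, and it takes in the Rpl3l, Rpl7l1, Rpl10l, Rpl22l1, Rpl36al, Rpl39l and Rps27l paralogs.

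RNA from the pancreas of wild-type mice was sequenced in 3 saline and 3 cerulein libraries, with a question about lncRNAs and mRNAs that change early in acute pancreatitis. Both groups were injected into the peritoneum. The cerulein group received 10 doses, each of 200 µl and at a rate of 200 µg/kg/h, and the pancreas was collected as soon as that course ended. Cerulein mimics the gut hormone cholecystokinin and drives acinar cells past their normal secretion, so the model is one of hormone-driven injury. How often saline was given, the age, sex and strain of the mice, and whether each library is 1 mouse are not stated, so the p-values below measure the spread between these libraries only. Per library, 5335117 to 7610775 reads were counted.

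A ribosome is assembled from ribosomal RNA and a set of ribosomal proteins, each normally present once per subunit except for the acidic proteins of the stalk. Ribosomal protein mRNAs usually begin with a run of pyrimidines, the terminal oligopyrimidine (TOP) tract, through which mTORC1 and the RNA-binding protein LARP1 control their translation more than their amount. The acinar cell makes digestive enzymes at a very high rate and is dense with ribosomes. Ribosomal protein mRNAs are also a common source of intronless copies in the genome, so a short read from one gene may fit several places.

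How much of a ribosomal protein coding sequence is unique among annotated transcripts differs widely among the 84 genes. The coding sequence of each gene was divided into overlapping stretches of 50 bases and looked up in all other GENCODE transcripts. In 29 genes every stretch was also found in another gene, and the median gene shared 89.5% of its stretches. Rpl3l and Rpl39l were among the genes that shared none. The counts of a row therefore rest on different amounts of unique coding sequence. The untranslated ends of the mRNAs, and the genome outside annotated transcripts, were not looked up. Whether reads that fit several places were counted is not given in the sources used here.

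Copies that sit in other genes of the table are shown first, because values described below differ between a gene and its copy. The 60 bases at the start of the Rps23 coding sequence are printed because the gene Gm5148 (chr3:37714190-37724490, mm10) holds them, on the opposite strand, letter for letter. Over the stretch that could be aligned, 398 of 398 bases were identical. For Rpl37 and Rpl34 the stretch around 1 difference is printed, with the differing base in capitals and positions counted from 1 at the first coding base. Rpl37rt (chr5:115102923-115110268) matches Rpl37 at 290 of 291 bases and differs by G249A. Rpl34-ps1 (chr6:71124610-71124963) matches Rpl34 at 349 of 351 bases and differs by T132C and C318G. The sequences are from GENCODE M21 transcripts, 5′ to 3′ in the sense of the ribosomal protein mRNA.
Rps23 and copy in Gm5148: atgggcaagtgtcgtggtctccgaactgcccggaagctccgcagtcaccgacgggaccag
Rpl37: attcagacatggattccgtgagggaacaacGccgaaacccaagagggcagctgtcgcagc
Rpl37rt: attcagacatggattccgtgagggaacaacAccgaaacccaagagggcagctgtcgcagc
Rpl34: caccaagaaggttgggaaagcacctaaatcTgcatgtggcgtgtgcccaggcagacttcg
Rpl34-ps1: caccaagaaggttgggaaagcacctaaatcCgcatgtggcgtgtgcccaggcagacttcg

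The ribosomal protein transcripts moved little as a group. Of the 84 genes, 79 had enough counts to be tested, 49 of the large and 30 of the small subunit. After cerulein 18 were higher, 2 were lower and 59 were not called at an adjusted p under 0.05 (edgeR quasi-likelihood test with Benjamini-Hochberg adjustment over all genes). The share called higher, 22.8%, stood beside 28.7% of the 12441 genes tested across the table. Of all genes 27.1% were called lower and 55.8% in either direction. The median log2 fold change was 0.20 against 0.00 over all genes, and 52 of the 79 genes lay within 0.5 log2 of no change. In CPM, which here are counts after TMM scaling of each library, every cerulein library lay above every saline library for 23 genes and below for 4. For all genes tested the groups did not overlap upward in 32.4% and downward in 30.6%.

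These counts depend on how libraries are scaled, since digestive enzyme transcripts took 48.7%, 62.0% and 63.0% of the saline counts and 32.3%, 35.3% and 30.8% of the cerulein counts. With upper-quartile factors 12 genes were higher and 8 lower, with library sizes that leave out the enzymes 14 and 5, and with library size alone 54 and 1. Library size alone also moved the median of all genes to 0.56, so the changes are best read against that median. The median of the ribosomal protein genes stood 0.19 to 0.21 log2 above that of all genes under each of these scalings. A change of scaling moves every gene by nearly the same amount, so this gap could hardly change and its steadiness tests nothing. The gap did depend on the libraries, from 0.03 with cerulein replicate 2 dropped to 0.31 with cerulein replicate 1 dropped. Leaving out cerulein replicate 2 brought the median of the ribosomal protein genes to 0.03, leaving out saline replicate 1 to 0.10, and leaving out cerulein replicate 1 to 0.30. The number called lower was 4 without saline replicate 1, and 1 when either saline replicate 3 or cerulein replicate 1 or 3 was left out.

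**Figure D1:**
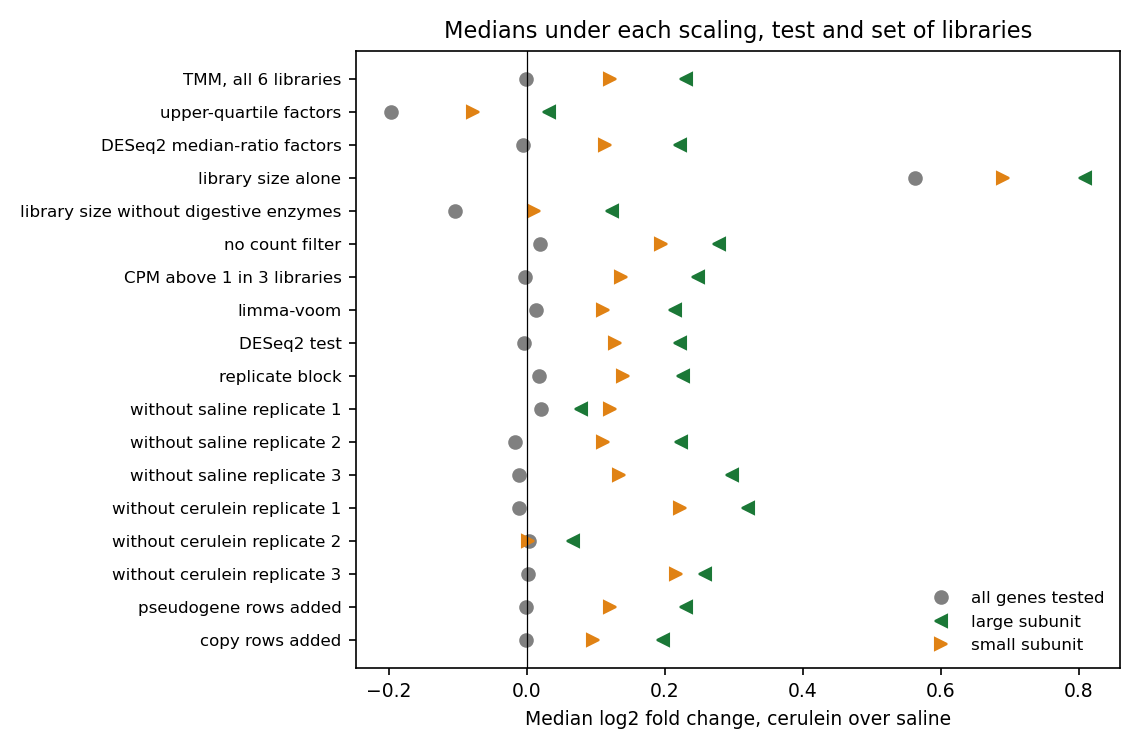
Median log2 fold change, cerulein over saline, of the large subunit genes (green), the small subunit genes (orange) and all genes tested (grey) under each scaling, test and set of libraries. The large subunit median is 0.23 and the small subunit median 0.12 in the top line, and all 3 medians shift together with library size alone. Without saline replicate 1 the order of the subunits turns, with 0.08 for the large and 0.12 for the small.

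Summed over the 84 genes, ribosomal protein reads took a larger part of the cerulein libraries. They were 0.528%, 0.447% and 0.506% of all counts in saline replicates 1 to 3 and 0.686%, 0.821% and 0.719% in cerulein replicates 1 to 3, or 0.494% ± 0.0418 (SD, n = 3) against 0.742% ± 0.0705 (SD, n = 3). Every cerulein library lay above every saline library. Outside the digestive enzymes the same reads were 1.03%, 1.18% and 1.37% of the remaining counts in saline and 1.01%, 1.27% and 1.04% in cerulein, or 1.19% ± 0.168 against 1.11% ± 0.141 (SD, n = 3 each). These groups overlapped. In bulk tissue a smaller number of acinar cells and less enzyme RNA per cell cannot be told apart. No p is given for sums over the genes.

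Marker sums of several cell types differed between the groups. They are RNA levels and not counts of cells. The acinar sum is mostly enzyme RNA, and any sum can lean on a few highly counted markers. The summed CPM of acinar markers was 259000 to 486000 in saline and 164000 to 207000 in cerulein, and 10 of 12 markers were lower. Duct markers were at 161 to 195 CPM in saline and 942 to 1190 in cerulein, with 6 of 7 higher. Macrophage markers were at 93.3 to 214 and 306 to 343 CPM, with 3 of 8 higher, while the neutrophil sum was highest in saline replicate 1, at 181 CPM against 16.7 and 37.3 in the other saline libraries and 41.8 to 95.3 in cerulein. Adipocyte markers were at 92.8 to 148 CPM in saline and 57.3 to 71.8 in cerulein, with 1 of 4 tested higher and 1 lower. The sums of islet, fibroblast, endothelium, lymphocyte and red cell markers overlapped between the groups. The part of cell makeup in the values of ribosomal protein genes was not tested.

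**Figure D2:**
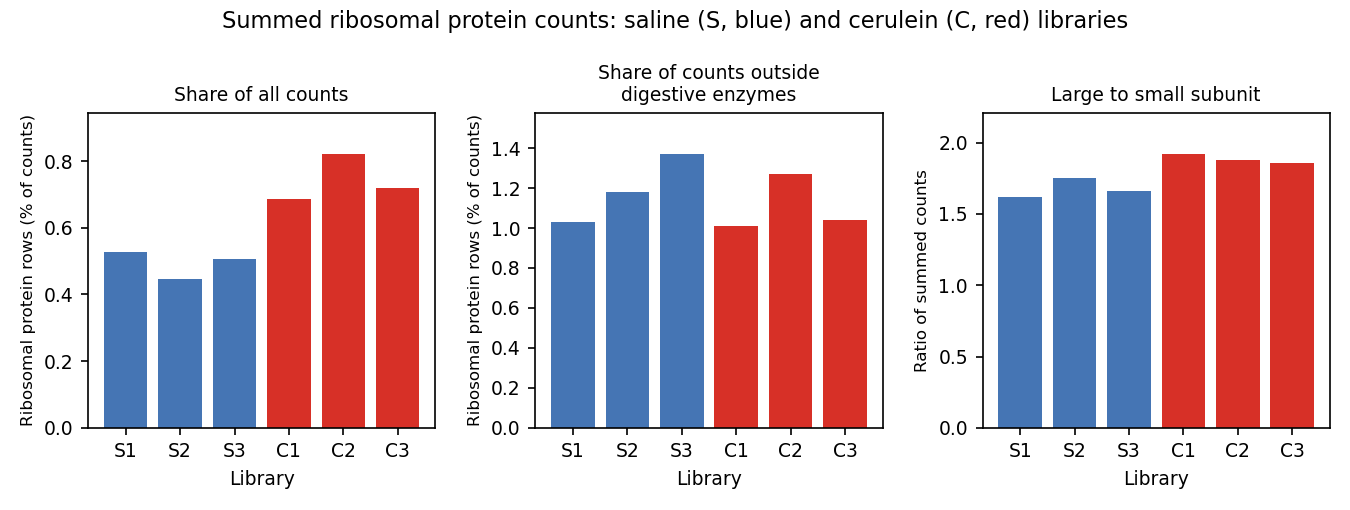
Bars give, for each of the 6 libraries, the summed ribosomal protein counts as percent of all counts (left), as percent of counts outside digestive enzymes (middle) and the ratio of large to small subunit counts (right). The groups separate in the left and right panels and overlap in the middle panel.

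Both subunits were made up mainly of genes that were not called. Of 49 large subunit genes 13 (26.5%) were called higher and 2 lower, with a median log2 fold change of 0.23. Of 30 small subunit genes 5 (16.7%) were higher and 0 lower, with a median of 0.12. Across all genes tested 28.7% were higher and 27.1% lower, so the large subunit stood near the share of all genes called higher. The order of these medians hung on 1 library, since without saline replicate 1 they were 0.08 for the large and 0.12 for the small subunit. At an unadjusted p under 0.05 edgeR had 2 small subunit genes lower, and limma-voom and DESeq2 each called 1. The ratio of summed large to summed small subunit counts, which does not depend on scaling, was 1.62, 1.75 and 1.66 in saline and 1.92, 1.88 and 1.86 in cerulein, a mean of 1.68 ± 0.0674 against 1.89 ± 0.0306 (SD, n = 3 each). Every cerulein library was above every saline library. The sums lean on a few genes, since the 10 most counted held 59.2% to 63.2% of ribosomal protein counts. With medians of the genes in place of sums the ratio was 0.908, 0.622 and 0.913 in saline and 0.882, 0.854 and 0.741 in cerulein, and the groups overlapped.

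The most counted ribosomal protein genes were not called. Rpl8, which lies near the peptidyl transferase centre of the large subunit, led with 600, 736 and 835 CPM in saline replicates 1 to 3 and 740, 1043 and 765 in cerulein. Its groups overlapped, and its log2 fold change was 0.23 ± 0.21 (SE). Rpl4, a large subunit protein that lines the exit tunnel, had 574, 659 and 735 CPM in saline and 491, 609 and 520 in cerulein, also overlapping, for -0.28 ± 0.19. The stalk proteins Rplp0 and Rplp1, which help recruit translation factors, were at 277 ± 53.3 and 295 ± 71.7 CPM in saline and at 286 ± 47.7 and 339 ± 71.2 in cerulein (SD, n = 3), and neither was called. Rplp2, their partner, had 10.0, 6.53 and 4.89 CPM in saline and 12, 10.8 and 11.2 in cerulein. Its groups did not overlap, but the log2 fold change of 0.62 ± 0.26 had an adjusted p of 0.0610 in the edgeR test. Rpsa, the small subunit protein also known as the laminin receptor, was at 84.7 ± 7.93 and 84.5 ± 18.3 CPM.

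Among the 6 largest rises were 4 small subunit genes. Rpl12, at the base of the stalk, had 16.7, 11.0 and 14.7 CPM in saline and 53.0, 65.5 and 52.8 in cerulein. All cerulein libraries lay far above all saline libraries, with a log2 fold change of 2.0 ± 0.19 and an edgeR adjusted p of 1.62e-06. The gene (chr2:32961559-32965345) overlaps the start of Lrsam1 on the other strand, whose log2 fold change was 0.66 with an edgeR adjusted p of 0.0944. Rps20, a protein of the small subunit head, had 14.2, 18.5 and 12.9 CPM in saline and 45.9, 58.7 and 43.7 in cerulein. Its groups were as clearly apart, with 1.7 ± 0.19 and an edgeR adjusted p of 7.86e-06.

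The other 4 of the largest rises were in genes with fewer counts. Rps23, a protein of the decoding centre, had 1.22, 1.35 and 1.80 CPM in saline and 3.91, 4.10 and 4.29 in cerulein, from 6 to 9 reads and 33 to 35 reads per library. The groups did not overlap (log2 fold change 1.52 ± 0.38, edgeR adjusted p 0.00391). With under 10 reads in each saline library, Rps23 passed the count filter through its cerulein libraries alone. Rps12 had 8.26, 5.63 and 6.94 CPM in saline and 13.1, 20.9 and 17.7 in cerulein, also without overlap (1.29 ± 0.24, edgeR adjusted p 0.000516). Rps16 had 2.30, 1.13 and 1.80 CPM in saline and 3.67, 3.16 and 4.55 in cerulein (1.07 ± 0.39, edgeR adjusted p 0.0338), and its call was lost without saline replicate 2 or 3 or cerulein replicate 1 or 3 (edgeR adjusted p 0.0625 to 0.119). Rps16, with 17, 5 and 7 reads in saline and 31, 27 and 36 in cerulein, reached the count filter only with its cerulein libraries. Rpl22l1, the remaining one, is described with Rpl22 below.

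Rpl27 (chr11:101442298-101445529) encodes a large subunit protein and served as the marker gene of the group. It had 9.07, 9.46 and 10.5 CPM in saline and 13.8, 16.5 and 18.9 in cerulein. The lowest cerulein library was above the highest saline library, and the log2 fold change was 0.77 ± 0.20 with an edgeR adjusted p of 0.00570. Every stretch of its coding sequence was also found in other genes. The remaining genes called higher, named here after their values were seen, were Rpl38, Rpl9, Rpl37, Rps7, Rpl31, Rpl7a, Rpl10a, Rpl30, Rpl13, Rpl19 and Rpl10, with log2 fold changes from 1.06 to 0.56. Rpl10a, a protein of the L1 stalk, was the most counted of them, at 61.5, 59.7 and 64.5 CPM in saline and 107, 116 and 113 in cerulein, with groups far apart. Of the 18 genes called higher, 11 kept the call in every fit that left out 1 library and under every scaling tried.

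**Figure D3:**
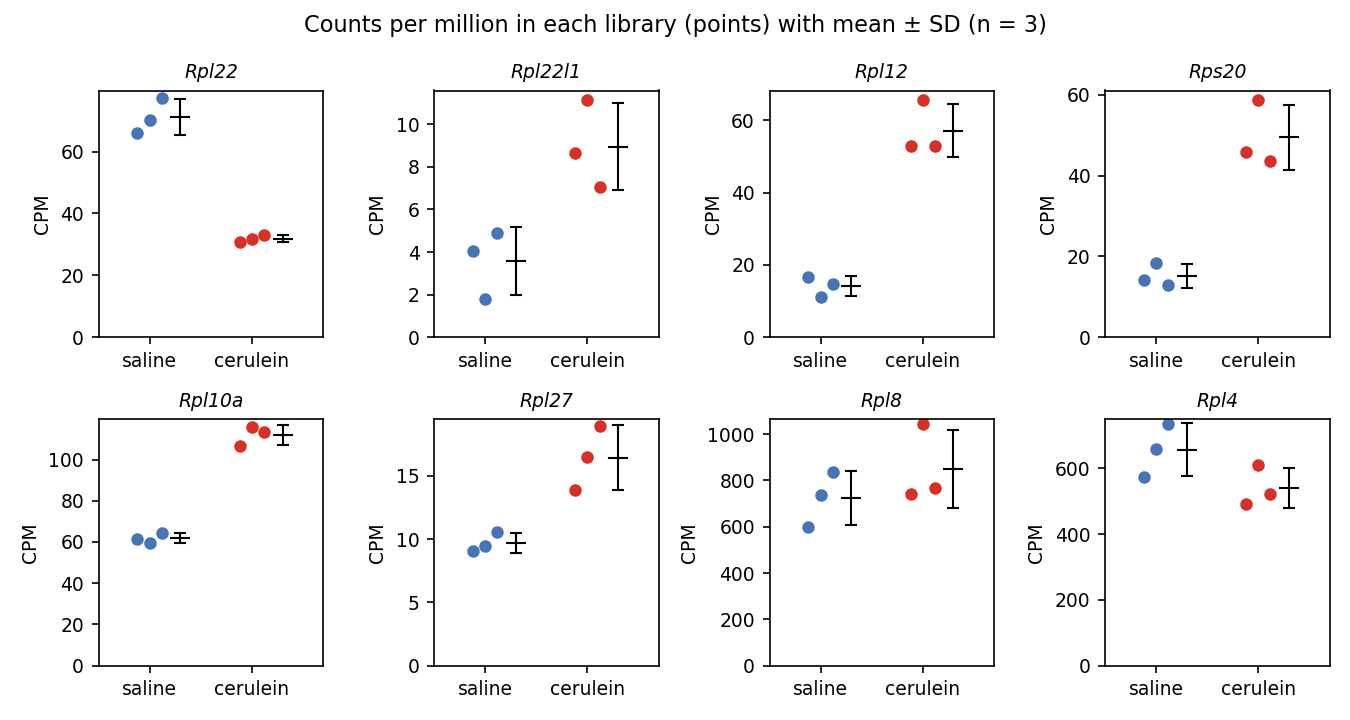
CPM of 8 ribosomal protein genes in each library (points), with the mean and SD of 3 libraries beside them. Rpl22 is lower in every cerulein library, Rpl22l1, Rpl12, Rps20, Rpl10a and Rpl27 are higher in every one, and the groups overlap for Rpl8 and Rpl4.

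Falls were few and mostly small. Rpl3, whose protein lies close to the peptidyl transferase centre, had 134, 133 and 155 CPM in saline and 93.9, 110 and 117 in cerulein. The groups did not overlap and the log2 fold change was -0.40 ± 0.16 with an edgeR adjusted p of 0.0461, a call that was lost without saline replicate 3 or any 1 of the cerulein libraries (edgeR adjusted p 0.0731 to 0.197). With library size alone its value was 0.18. Rpl34, Rps18 and Rps26 had log2 fold changes of -0.44, -0.37 and -0.30 and were not called. In CPM, Rpl34 and Rps18 were lower in every cerulein library than in any saline library, and all 3 values were above 0 with library size alone.

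Rpl22 and its paralog Rpl22l1 moved in opposite directions. Both encode RNA-binding proteins that take the same place in the large subunit, and their coding sequences are 73.5% identical over 351 aligned bases. Rpl22 had 66.0, 70.1 and 77.4 CPM in saline and 30.8, 31.7 and 33.1 in cerulein. Every cerulein library was below every saline library, with a log2 fold change of -1.16 ± 0.14 and an edgeR adjusted p of 1.80e-05. Rpl22l1 had 4.06, 1.80 and 4.89 CPM in saline and 8.64, 11.1 and 7.07 in cerulein, again without overlap, with 1.31 ± 0.34 and an edgeR adjusted p of 0.00496. Both calls held in all 6 fits that left out a library and under each of the 4 other scalings, although with library size alone the value of Rpl22 was -0.58.

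The ratio of paralog to parent within a library does not depend on scaling. The log2 ratio of Rpl22l1 to Rpl22 was -4.0, -5.20 and -3.95 in saline and -1.83, -1.51 and -2.22 in cerulein, a difference of 2.53. Every cerulein ratio was above every saline ratio. With 3 libraries a group the two-sided exact permutation test cannot give a p below 0.1, which is the value found, and the p adjusted over the 5 pairs tested was 0.5. The other pairs showed no such separation. The difference was 0.27 for Rpl7l1 to Rpl7 (exact p 0.4), -0.25 for Rpl36al to Rpl36a (exact p 0.5), -0.43 for Rps27l to Rps27 (exact p 0.6) and -1.87 for Rpl3l to Rpl3 (exact p 0.4), the last from 16 Rpl3l reads in all libraries together.

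Paralogs known from other tissues were barely counted. Rpl3l, the muscle form of Rpl3, had 16 reads over the 6 libraries, Rpl39l, known from testis, had 3, and Rpl10l, also known from testis, had 0. Rpl32l had 0 reads and lies inside Map7. Rps21 was the other gene below the filter, with 52 reads. Per kilobase of transcript, scaled to the same sum in each library, the saline level was 207 for Rpl36al and 6.09 for its parent Rpl36a, and 48.0 for Rps27l and 5.90 for Rps27. In both pairs the parent has the lower level and is a gene in which every coding stretch is also found elsewhere, and the other is not.

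Change and count level were related across the genes. Among the 27 least counted genes 10 (37.0%) were called higher and 0 lower, with a median log2 fold change of 0.63. In the middle group of 26 these were 7 (26.9%) and 0 with a median of 0.20. Among the 26 most counted they were 1 (3.85%) and 2 with a median of -0.01. Across all genes tested 28.7% were higher and 27.1% lower, so the middle group stood near the share of all genes called higher. At an unadjusted p under 0.05 edgeR had 0 lower in the first group and 2 in the middle group, and limma-voom and DESeq2 called 0 lower in both. Spearman's rho between mean CPM and log2 fold change was -0.621 over the 79 genes and 0.162 over all 12441 genes. The genes share libraries and are not independent, so no p is given. A gene with few counts could also pass the count filter through 1 group alone. Rps23 and Rps29 did so through cerulein, with at most 10 reads in each saline library. Others, such as Rps16, Rpl31 and Rpl22l1, also reached the filter only with cerulein libraries. The place of these genes among the least counted is not independent of their rise. The calls and the median of that group rest partly on them. The levels themselves spread widely. On a scale of counts per kilobase of transcript, brought to the same sum in each library, the saline level of Rpl8, the highest, was 549 times that of Rps23, the lowest of the 79. Every coding stretch of Rps23 is also found elsewhere, and Gm5148, which holds a copy of it, had 166 times its counts. Rpl8 shared 8.7% of its stretches. How far this spread is one of mRNA amount was not tested.

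The share of a gene's coding sequence found elsewhere went with both measures. Of the 17 genes with under 50% of stretches shared, 12 were tested, 0 were higher and 1, Rpl22, was lower, with a median log2 fold change of -0.02. Of the 38 genes with 50% to under 100% shared, 7 (18.4%) were higher and 1 lower, with a median of 0.19. Of the 29 with every stretch shared, 11 (37.9%) were higher and 0 lower, with a median of 0.49. Across all genes tested 28.7% were higher and 27.1% lower. The counts of 0, higher among the genes with under 50% shared and lower among those with every stretch shared, were also 0 at an unadjusted p under 0.05 and with limma-voom and DESeq2. Spearman's rho was 0.446 between the share and log2 fold change and -0.536 between the share and the level per length in saline (n = 79). Genes with a small nucleolar RNA gene inside their span had 9 called higher of 29 (31.0%), and the others 9 of 50 tested (18.0%), beside 28.7% of all genes.

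**Figure D4:**
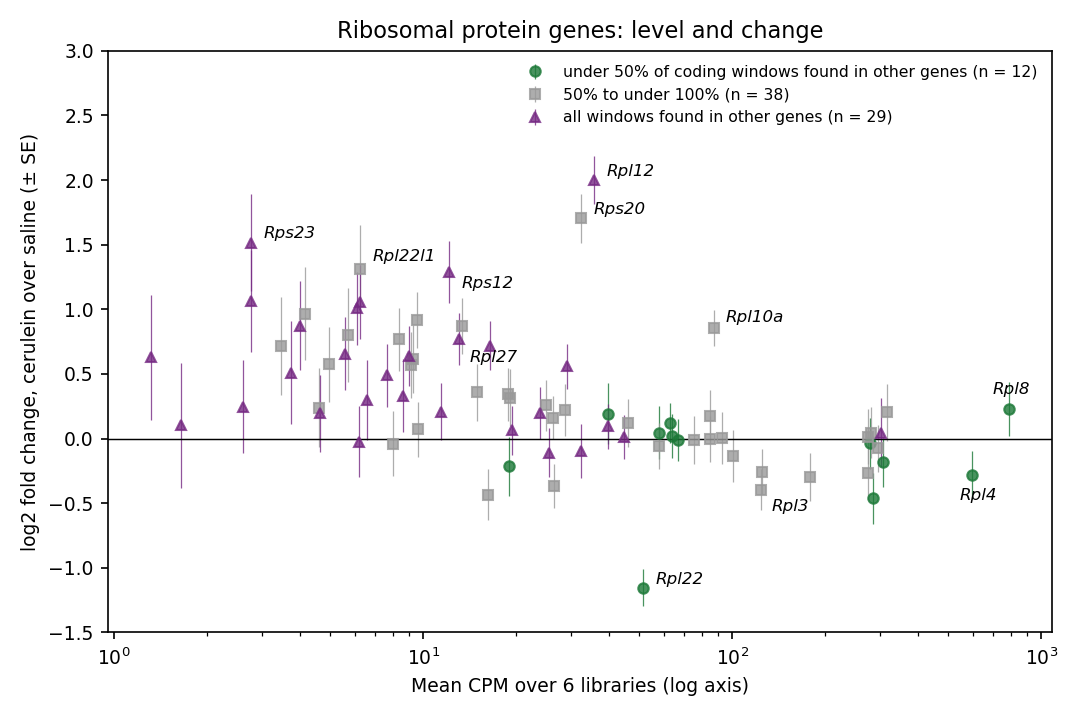
Log2 fold change, cerulein over saline (± SE), against mean CPM over the 6 libraries (log axis) for the 79 genes tested, marked by the share of 50-base coding stretches found in other genes. Rpl12 and Rps20, the highest points, lie in the middle of the CPM range, and the 12 genes with under 50% shared include Rpl22, the lowest point, and Rpl8 and Rpl4, the points farthest right.

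Rows of the table that hold a copy had many more counts than some ribosomal protein rows, and their log2 fold changes are given side by side with no test of the difference. Gm5148, with the Rps23 copy printed above, had 2906, 2345 and 2215 counts in saline and 3560, 5697 and 3880 in cerulein, 166 times the counts of the Rps23 row. Its log2 fold change was 0.08 ± 0.22, against 1.52 for Rps23, and the 2 rows added together gave 0.09. Rpl37rt had 2038, 1641 and 1454 counts in saline and 2545, 3848 and 2566 in cerulein. Its log2 fold change was 0.08 against 0.97 for Rpl37, and the sum gave 0.09. Both sums stood near 0, and neither was called.

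Other pairs differed among themselves. Wdr89, a gene with a Rplp2 copy, had a log2 fold change of 0.11 against 0.62 for Rplp2, with 0.13 for the sum. Rpl34-ps1 had -0.25 against -0.44 for Rpl34, with -0.26 for the sum. Gadl1, with a Rpl24 copy on the other strand, had 0.22 against 0.30. Uimc1, with a Rpl29 copy on the other strand, had -0.13 against 0.01, and Gm5879, with a Rpl3 copy, -0.54 against -0.40. Other rows went further from the ribosomal protein gene. Med21, with a Rps26 copy on the other strand, had 1.5 against -0.30. BC004004, with a Rpl21 copy, had -1.74 against -0.02, with -1.46 for the sum. Wdr89, Gadl1 and the further rows of this kind also hold the mRNA of a gene of their own. That matters most for Nphs1, which holds part of Rps12 on the other strand and had -1.72, so that Rps12 with Nphs1 added gave -1.0. With all 10 such rows added, a calculation chosen after the data were seen, 15 ribosomal protein genes were higher and 4 lower, with a median of 0.16. Rps23 and Rpl37 were then not called, and Rps12 and Rpl21 were lower. From which place the reads of a copy row came was not tested.

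**Figure D5:**
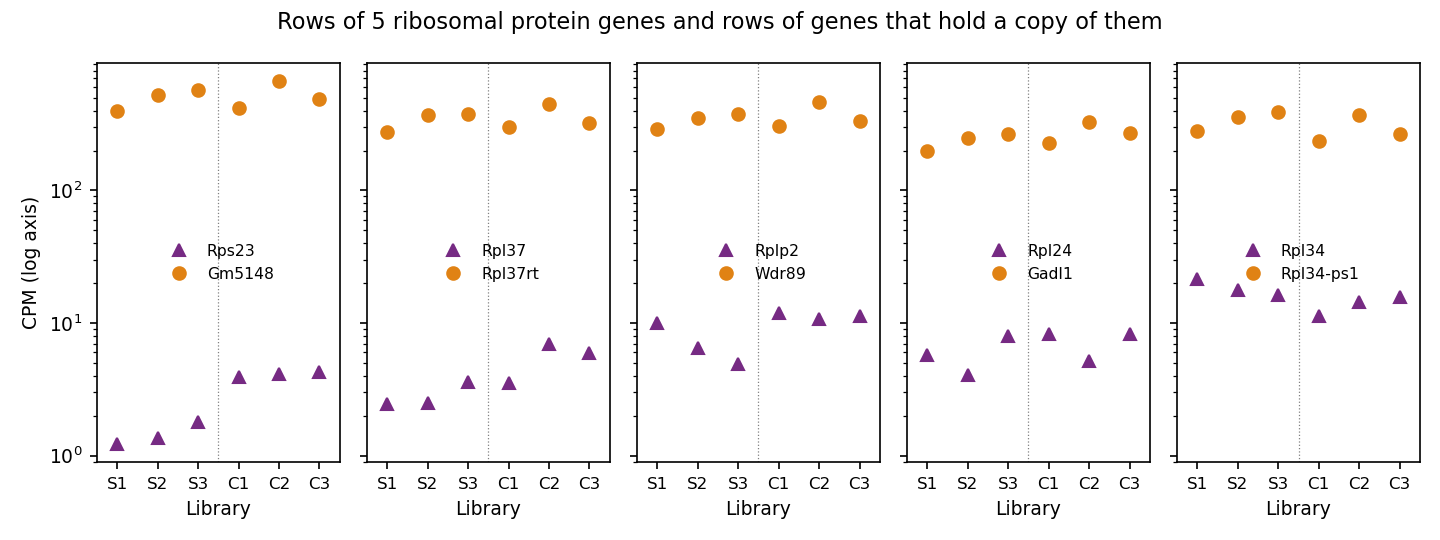
CPM (log axis) in the saline (S1 to S3) and cerulein (C1 to C3) libraries for 5 ribosomal protein genes (purple triangles) and for the gene that holds a copy of each (orange circles). The copy rows lie 19.3 to 166 times above the ribosomal protein rows in counts, and the step up from saline to cerulein seen for Rps23 is not seen for Gm5148.

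The start of the genes was read for the TOP tract, counted as C followed by at least 4 pyrimidines (C or T) in RefSeq promoter sequences of GRCm38.p6. Of 64 ribosomal protein genes with an entry, 14 (21.9%) had such a run exactly at the annotated start, against 3.01% of 27025 genes. Within 10 bases of the start it was found in 40 (62.5%) against 34.4%. Among genes called higher it was at the start in 1 of 16 and near it in 10, and among tested genes not called higher in 11 of 43 and 25. The windows below run from 20 bases before to 10 bases from the start, with the run in capitals, and show how its place differs between genes that rose (Rpl38, Rpl12, Rpl22l1), a gene that was not called (Rps10) and Rpl27, which rose and holds no such run here. A run that is not found says only that these letters are not in the window, since annotated starts can be some bases off.
Rps10 (chr17:27635235-27635264, minus strand): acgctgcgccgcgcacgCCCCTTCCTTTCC
Rpl38 (chr11:114668560-114668589, plus strand): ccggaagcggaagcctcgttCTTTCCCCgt
Rpl12 (chr2:32961692-32961721, plus strand): gcgtgggcggagcaggatccgtCTTTTCgg
Rpl22l1 (chr3:28805488-28805517, plus strand): cgtgcgtgcggcgcaagcccgttCTCTTCC
Rpl27 (chr11:101442225-101442254, plus strand): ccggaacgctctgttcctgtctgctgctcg

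Ribosomal proteins outside the naming pattern were mostly not called. Rack1, a scaffold protein of the small subunit head, was at 830 ± 125 CPM in saline and 770 ± 116 in cerulein (SD, n = 3), with a log2 fold change of -0.11. Rps3a1, a small subunit protein, fell from 51.6 ± 7.82 to 34.6 ± 4.61 CPM (-0.57 ± 0.17, edgeR adjusted p 0.0108), although with library size alone the value was 0.01 and the call was lost when saline replicate 3 or cerulein replicate 1 or 3 was left out (edgeR adjusted p 0.0522 to 0.0605). Fau, which is made as a fusion with a ubiquitin-like protein, had 0.54 and was not called. Of the 4 genes of this kind tested, 0 were higher and 1 lower, beside 28.7% higher and 27.1% lower of all genes. With 4 genes there are too few to compare with these shares. The count of 0 higher was also 0 at an unadjusted p under 0.05 and with limma-voom and DESeq2.

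Other mRNAs known to carry a TOP tract were split. Of 21 such genes 4 were higher and 4 lower, with a median log2 fold change of -0.07, and 2 were higher without cerulein replicate 3. Both counts are lower shares than the 28.7% higher and 27.1% lower of all genes. The elongation factors Eef1a1 and Eef2, among the most counted of them, had 0.09 and -0.18 and were not called. The histone chaperones Nap1l1 and Npm1 rose by 1.34 ± 0.16 (edgeR adjusted p 1.09e-05) and 0.98 ± 0.20 (edgeR adjusted p 0.000855). The eIF3 subunits Eif3k and Eif3h fell, with log2 fold changes of -1.61 ± 0.17 (edgeR adjusted p 4.50e-06) and -1.42 ± 0.17 (edgeR adjusted p 1.56e-05).

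Translation initiation factors outside the TOP mRNAs above were mostly higher. Of 29 genes 19 were called higher and 1, Eif2b1, lower, with a median log2 fold change of 0.76, beside 28.7% higher and 27.1% lower of all genes. Initiation factors counted among the TOP mRNAs are not in this list and went otherwise. Among them, named here after their values were seen, Eif3e, Eif3h, Eif3k and Eif3m were called lower and Eif3a higher. Eif3f, Eif3l, Eif4b and Eif2s3x were not called. Eif1a and Eif1, which act in start codon selection, went from 58.2 ± 1.93 to 248 ± 30.7 CPM and from 78.6 ± 9.42 to 315 ± 52.9 CPM (SD, n = 3). Their log2 fold changes were 2.09 ± 0.17 and 2.01 ± 0.19 (edgeR adjusted p 4.15e-07 and 1.48e-06). Eif6, which keeps the large subunit from joining too early, rose by 1.87 ± 0.16, and the helicase Eif4a1 by 1.63 ± 0.17. The difference between these and the ribosomal protein genes was not tested.

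Of 19 regulators of TOP mRNAs 4 were higher and 8 lower, beside 28.7% and 27.1% of all genes. Larp1, which binds the TOP tract, fell by 0.84 ± 0.17 (442 ± 4.89 to 247 ± 20.3 CPM, edgeR adjusted p 0.000809), a gene named here after its value was seen, and its relative Larp1b fell by 1.31 ± 0.16. Rps6kb1, the S6 kinase, fell by 1.95 ± 0.15 (edgeR adjusted p 3.44e-07), and Deptor, an mTOR inhibitor, fell by 1.41 ± 0.16. Eif4ebp1, a repressor of cap-dependent translation, rose by 1.47 ± 0.19.

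Factors that import ribosomal proteins or guard them before assembly were mostly higher, with 7 of 12 up (28.7% of all genes), 3 down (27.1% of all genes) and a median of 0.55, and 1 was down without cerulein replicate 3. Grwd1, a chaperone of Rpl3, rose by 1.87 ± 0.21 (12.6 ± 3.13 to 47.3 ± 7.48 CPM, edgeR adjusted p 6.69e-06), and the importins Kpnb1 and Ipo5 by 1.11 ± 0.16 and 1.08 ± 0.16. Heatr3, which carries Rpl5 into the nucleus, fell by 1.23 ± 0.17. Rpl5 itself was at 44.3 ± 4.40 and 44.6 ± 8.17 CPM.

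Factors that act on stalled ribosomes were also split, with 9 of 19 higher, 6 lower and a median of 0.30, beside 28.7% higher and 27.1% lower of all genes. Gtpbp2, a GTPase linked to ribosome stalling, went from 52.4 ± 15 to 251 ± 36.9 CPM (2.25 ± 0.22, edgeR adjusted p 2.01e-06). G3bp1, a stress granule protein, rose by 1.29 ± 0.16. Nemf and Tcf25, parts of the quality control complex on the large subunit, fell, with log2 fold changes of -1.30 ± 0.20 and -1.21 ± 0.17.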

How the data were processed

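Whole-number read counts of 6 libraries, deposited by the authors in 1 table, were used as they stood. RNAlater storage, TRIzol extraction and a TruSeq Stranded mRNA kit are named per the labels' protocols. Of the processing, mm10, HTSeq, STAR and Trimmomatic are named per the submitters' processing notes. Tool versions, strand setting, counted feature, annotation release and the treatment of reads with several alignments: not given in the sources used here.

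Genes passing edgeR 4.0.16 filterByExpr (minimum count 10, minimum total 15) were tested in R 4.3.3 with TMM factors and the two-sided robust quasi-likelihood F test, adjusted over all 12441 genes and called under 0.05. The procedure was run on simulated counts with as many rises as falls and no shift in the enzyme share. That run could not check how scaling acts in these libraries. CPM uses TMM-scaled sizes, and levels per length use GENCODE M21 transcripts of GRCm38. Ratios of paralog to parent were log2 values with 0.5 added to each count. Limma-voom (limma 3.58.1), DESeq2 1.42.0, 4 other scalings, filters, single libraries left out and added copy rows were alternatives. A copy row shares at least 100 stretches of 50 bases with exactly 1 ribosomal protein coding sequence and has a mean of at least 10 counts. Genes named were Rpl27, paralog pairs, stalk proteins, Rpsa, the 6 largest rises and falls, called genes against the main direction, the 3 most counted, and up to 4 of smallest p per other list, plus those marked as chosen later. A few genes chosen this way are left unreported. Members and lists were chosen with earlier results of these data known. Replicate numbers were not used as pairs: same-numbered libraries correlated at 0.196, 0.226 and -0.158. Protein sequences were not used here.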

Additional observations from a re-analysis of the deposited data

How the results depend on the processing

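Depth limits the genes with few counts, such as Rps23, Rps16, Rps27 and Rpl31, where single reads move a value. The 18 ribosomal protein genes called higher became 13 to 18 when 1 library was left out and 54 with library size alone, and the 2 called lower became 1 to 4 and 1. Genes called lower were 8 with upper-quartile factors, 5 with library sizes without digestive enzymes, 4 with copy rows added, and 1 each with DESeq2 factors, without a count filter and with a filter of CPM above 1 in 3 libraries. Medians with library size alone were 0.77 for all ribosomal protein genes, 0.81 for the large and 0.69 for the small subunit. The share of counts, 0.248 percentage points higher after cerulein, was 0.330 higher with copy rows and -0.0846 outside digestive enzymes. The subunit ratio differed by 0.0111 with medians. With library size alone, other ribosomal proteins were 3 higher and 0 lower, TOP mRNAs 10 and 2, mTOR and TOP regulators 8 and 4, and those lower were 3 among stalled-ribosome factors and 1 among import factors. Upper-quartile factors gave 7 lower TOP mRNAs and 3 lower initiation factors. Without a library, lower other ribosomal proteins were 0 to 1, higher TOP mRNAs 2 to 4 and lower import factors 1 to 3. With the replicate block 19 ribosomal protein genes were higher and 3 lower, with a median of 0.19, and it changed no count of a list by over 1.5 times. Library size alone turned Rpl3 to 0.18, Rpl7 to 0.33, Rps27l to 0.37, Rpsa to 0.56, Rpl34 to 0.11, Rps18 to 0.20, Rps26 to 0.30, Rpl4 to 0.31, Rps3a1 to 0.014 and Rack1 to 0.48. Upper-quartile factors turned Rpl7l1 to -0.18, Rpl36al to -0.20, Rps27 to -0.090 and Rplp0 to -0.15. Library sizes without enzymes turned the same genes to -0.083, -0.11, -0.0061 and -0.062. Rpl36al was -0.0057 with DESeq2 factors, -0.0068 with the DESeq2 test, -0.021 with limma-voom and -0.018 with the block. Rpsa was 0.073 without a filter and 0.015 with the CPM filter. Rps12 was -1.0 with copy rows added. Leaving out 1 library gave -0.13 to 0.18 for Rpl7l1, -0.21 to 0.18 for Rpl36al, -0.089 to 0.66 for Rps27, -0.14 to 0.15 for Rplp0, -0.017 to 0.36 for Rplp1 and -0.15 to 0.16 for Rpsa. The planned comparison of paralog proteins was not run. The cause of these changes was not tested.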
